A study of Canis lupus familiaris with 24 samples.

Results

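*Nkx6.1*, *Nkx2.2* and *Isl1* are homeodomain transcription factors of the pancreatic islet, and they make up 3 of the 26 genes with RT-qPCR values in the series. They were taken by gene symbol from the tables of values, where they are measured in 8 of the 24 samples and have 0 values in the others. These samples are 4 undifferentiated controls and 4 insulin-producing cell (IPC) samples, all of day 13, from 4 lines of canine adipose-derived mesenchymal stem cells (cAD-MSCs). Each line came from the abdominal fat of a different healthy donor dog, of an age between juvenile and adult, and contributed a control and an IPC sample. The controls were grown in DMEM and received no inducing agent. The IPC samples had passed through definitive endoderm (Chir99021 and Activin A, to day 3), pancreatic endocrine progenitors (taurine, retinoic acid, FGF2, EGF, a TGFβ inhibitor, dorsomorphin, nicotinamide and DAPT, to day 8) and a last stage with taurine, nicotinamide, Glp-1, forskolin, a PI3K inhibitor and a TGFβ inhibitor, to day 13. By the study's methods, undifferentiated cAD-MSCs grow adherent in medium with serum, whereas the induced cells are serum-free floating colonies put into alginate for the last stage, so the agents, the medium and the form of culture differ together and cannot be told apart.

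Homeodomain factors bind DNA through a helix of a conserved domain and switch sets of cell type genes on or off. *Nkx6.1* is first active across pancreatic progenitors and later stays on in beta cells, where it maintains their identity. *Nkx2.2*, of the related NK2 family, is needed for the formation of beta cells from endocrine precursors. *Isl1* carries LIM domains beside its homeodomain, is found in all islet endocrine cell types, and is also active outside the pancreas, for example in motor neurons and in cardiac progenitors.

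The deposited values are threshold cycles (Ct), where Ct is the PCR cycle at which its signal passes a set level, so that a later Ct means less template. The tables also hold a linear ratio to *Gapdh*, the reference gene, which is 2 to the power of minus the difference in Ct from *Gapdh* in that sample. Relative mRNA expression stands here for this ratio as a multiple of the mean of the 4 controls. The comparison used the exact Mann–Whitney U test in its two-sided form, which the study names for a pair of independent groups. Both groups here hold the same 4 lines, and this test leaves that pairing out. With 4 samples against 4 its smallest p-value is 0.0286, and only groups without overlap reach it. The Ct of *Gapdh* was worked back from these values. For *Nkx6.1* and *Isl1* it had the same value as for *NeuroD1* to within 0.1 cycles. This was 21.7 ± 0.0962 cycles (SD, n = 4) in controls and 26.8 ± 0.147 cycles in IPCs. *Nkx2.2* had another value, the same as *Rfx6* to within 0.1 cycles, at 21.4 ± 0.0349 and 27.1 ± 0.102 cycles. *Gapdh* thus came later in IPCs by 5.08 cycles in the first set and by 5.64 cycles in the second (exact two-sided permutation test, p = 0.0286 each). The delay worked back in this way was not uniform over the table, which holds 5 such sets for the same 8 samples. It was 5.14 and 5.16 cycles in another 2 sets, but 1.89 cycles in the set behind *Glut2* and *Glp1r*. The *Gapdh* Ct of this last set differs from that behind *Glis3* and *MafA* by close to whole cycles in every sample. For *Glut2* against *Glis3* it was 22.50 against 21.50 cycles in the control of line 1 and 24.77 against 26.77 in its IPCs. In the IPCs of line 4 it was 24.14 against 27.13. Whether these 2 sets, or any of the 5, are separate measurements was not tested. Less RNA in the reaction and less *Gapdh* mRNA per cell cannot be told apart here, and the same holds for fewer cells of a type and less RNA per cell.

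Relative to *Gapdh*, the IPC samples of all 3 genes lay above the controls without overlap, as did those of 11 of the 13 genes in the table, or 84.6%, and the direction of the mean was opposite for each of the 3 when the Ct values were used without *Gapdh*. The changes were 27.7-fold for *Nkx2.2*, 7.32-fold for *Nkx6.1* and 3.26-fold for *Isl1*. *Insulin*, the marker fixed for the labelled cell type, was 27.2 times the controls by the same ratio. Its Ct was late in both groups, at 36.0 to 37.0 cycles in controls and 36.8 to 36.9 cycles in IPCs.

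**Figure D1:**
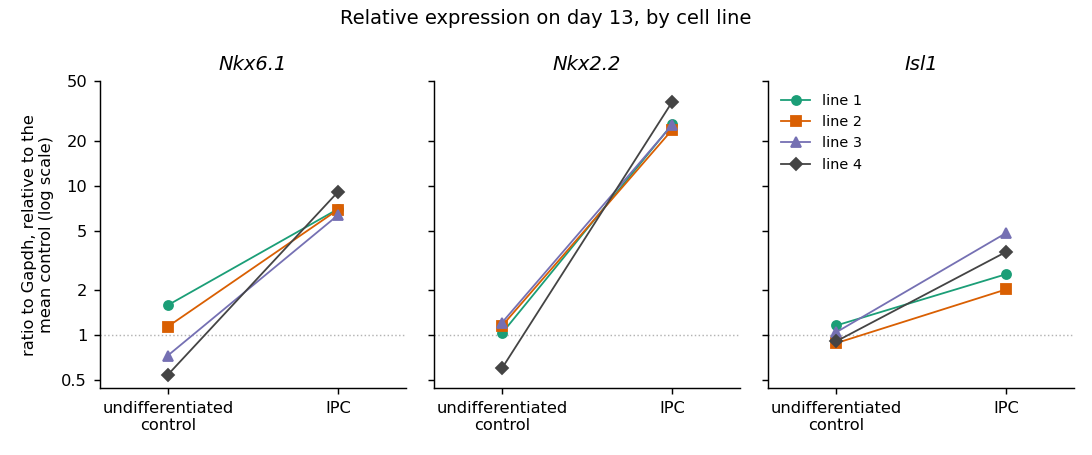
The ratio to Gapdh of each gene on day 13, divided by the mean of the 4 controls, on a log axis. Each symbol is a sample, and lines join the control and the IPC sample of the same cell line. All IPC samples lie above all controls, from 23.6 to 36.3 for Nkx2.2, from 6.34 to 9.07 for Nkx6.1 and from 2.02 to 4.83 for Isl1, a direction that was opposite for the means of all 3 genes without Gapdh.

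*Nkx6.1* was the gene of the 3 whose controls differed most. Its relative expression was 1.59 in the control of line 1, 1.14 in line 2, 0.730 in line 3 and 0.543 in line 4. In IPCs it was 6.97, 6.90, 6.34 and 9.07 in the same order of lines. The IPC samples therefore lay close together and well above the controls, and line 4, with the lowest control, had the highest IPC value. The mean was 7.32 ± 1.20 (SD, n = 4) against 1 ± 0.464 (exact Mann–Whitney U test, p = 0.0286, Benjamini-Hochberg adjusted p = 0.0338 over the 13 genes). On the log2 scale the difference was 2.98, with a 95% interval from 2.29 to 3.67 by limma. Within the lines, IPCs had 4.39, 6.05, 8.68 and 16.7 times the ratio of their own control for lines 1 to 4. By raw Ct, the *Nkx6.1* signal of controls came at 30.15, 30.65, 31.48 and 31.82 cycles for lines 1 to 4, and that of IPCs at 33.29, 33.0, 33.3 and 32.91 cycles. It was later in the IPCs of all 4 lines, by 1.09 to 3.14 cycles, which is less than the delay of *Gapdh* in each line.

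*Nkx2.2* was the least abundant of the 3 by its ratio and had the latest Ct. In the controls its relative expression was 1.03 in line 1, 1.15 in line 2, 1.21 in line 3 and 0.601 in line 4. In IPCs it was 25.7, 23.6, 25.4 and 36.3. Lines 1 to 3 were thus nearly equal in each group, and line 4 was the lowest control and the highest IPC sample. The mean was 27.7 ± 5.75 (SD, n = 4) against 1 ± 0.276 (exact Mann–Whitney U test, p = 0.0286, adjusted p = 0.0338), a log2 difference of 4.82 with a 95% interval from 4.22 to 5.43 by limma. IPCs of lines 1 to 4 had 24.9, 20.5, 21.0 and 60.3 times the ratio of their own control. Without line 4 the mean was 22.0 times the controls.

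Before division by *Gapdh*, *Nkx2.2* moved least of the 3. The controls of lines 1 to 4 had a Ct of 34.61, 34.5, 34.45 and 35.4 cycles, and the IPCs had 35.55, 35.8, 35.6 and 35.28 cycles. The groups overlapped, since the control of line 4 had a later Ct than its IPCs (exact Mann–Whitney U test, p = 0.0571). In lines 1 to 3 the Ct was later in IPCs by 0.94 to 1.30 cycles, and in line 4 it was earlier by 0.12 cycles. The 27.7-fold value thus combines a Ct that was later by 0.818 cycles on average with a *Gapdh* Ct that was later by 5.64 cycles.

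*Isl1*, the most abundant of the 3 by its ratio, was the most even gene of the 3 in controls and the least even in IPCs. The control values were 1.16, 0.884, 1.05 and 0.910 for lines 1 to 4. The IPC values were 2.56, 2.02, 4.83 and 3.61. Lines 3 and 4 had the higher IPC values and lines 1 and 2 the lower, and the lowest IPC value was still above the highest control. The mean was 3.26 ± 1.24 (SD, n = 4) against 1 ± 0.128 (exact Mann–Whitney U test, p = 0.0286, adjusted p = 0.0338), and the log2 difference was 1.63 with a 95% interval from 1.01 to 2.25 by limma. Within the lines the change was 2.204, 2.29, 4.62 and 3.97 times for lines 1 to 4. Its raw Ct showed the largest delay of the 3 genes, from 28.03, 28.45, 28.39 and 28.51 cycles in controls to 32.16, 32.19, 31.12 and 31.67 cycles in IPCs, without overlap.

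**Figure D2:**
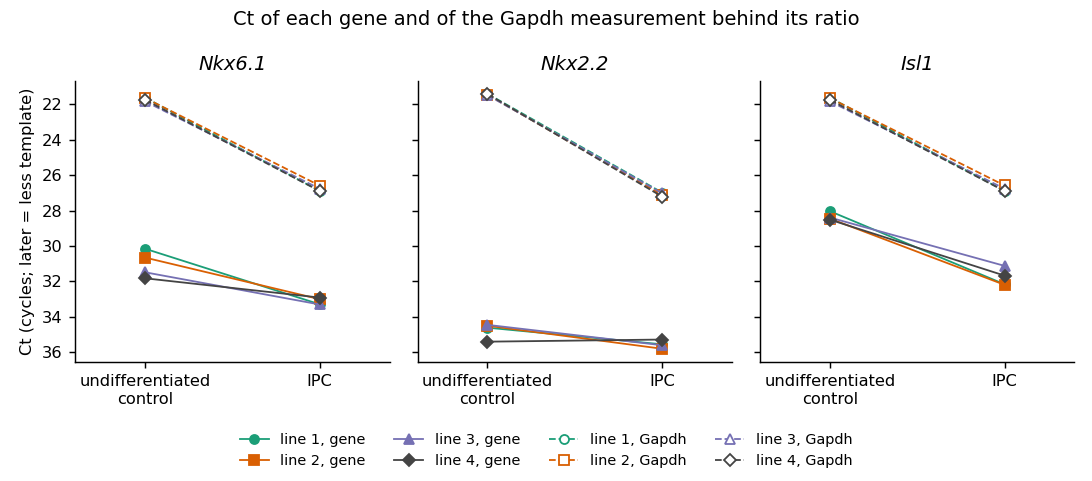
Raw Ct of each gene (filled symbols, solid lines) and the Gapdh Ct worked back from its ratio (open symbols, dashed lines), in cycles. The axis is turned so that more template is higher. Gapdh was later in IPCs of all 4 lines, by 4.93 to 5.79 cycles, while Isl1 was later by 2.73 to 4.13 cycles, Nkx6.1 by 1.09 to 3.14 cycles and Nkx2.2 by at most 1.30 cycles.

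The spread between lines differed by gene and by group. On the log2 scale, the SD of *Nkx6.1* between lines was 0.684 in controls and 0.224 in IPCs, and that of *Nkx2.2* was 0.466 and 0.277. For *Isl1* it was the other way round, 0.183 in controls and 0.551 in IPCs. The median over the 13 genes was 0.467 in controls and 0.224 in IPCs. *Isl1* had the highest SD of the 13 genes in IPCs and the 12th highest in controls. These differences in spread were not tested.

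The order of the 3 genes by level was the same in both groups. In controls the ratio to *Gapdh* was 0.0101 ± 0.0013 (SD, n = 4) for *Isl1*, 0.0017 ± 0.000788 for *Nkx6.1* and 0.000102 ± 2.83e-05 for *Nkx2.2*. In IPCs it was 0.0329 ± 0.0125, 0.0124 ± 0.00204 and 0.00284 ± 0.000589. Neighbours in this order did not overlap in either group, and the closest were *Isl1* in line 2 and *Nkx6.1* in line 4 of the IPCs, at 0.0205 and 0.0154. Among the 13 genes, ranked from the highest mean ratio, *Isl1* was 2nd, *Nkx6.1* 3rd and *Nkx2.2* 7th in controls, and 3rd, 6th and 9th in IPCs. These levels compare different amplicons and take each to double in every cycle.

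The direction of change rested on the reference for all 3 genes. Without a reference, the mean of 2 to the power of minus Ct in IPCs was 0.0958 times the controls for *Isl1*, 0.212 times for *Nkx6.1* and 0.554 times for *Nkx2.2*. *Isl1* and *Nkx6.1* were then lower, and neither overlapped with its controls (exact Mann–Whitney U test, p = 0.0286, adjusted p = 0.0413 each), as were 46.2% of the 13 genes, while 23.1% were higher. With the mean Ct of the other 12 genes of the sample as the reference, the values were 0.110, 0.262 and 0.748. *Nkx2.2* again overlapped (exact Mann–Whitney U test, p = 0.343), with the same 46.2% of genes lower and 23.1% higher. These other genes are markers followed through the induction and not reference genes. By raw Ct they moved both ways, from 4.89 cycles earlier in IPCs for *NeuroD1* to 4.785 cycles later for *Epac2*, and their mean was not tested as a reference. When each sample was given a single *Gapdh* Ct, the median of its 13 values, all 3 were higher, at 3.39, 7.78 and 20.0 times the controls, as were 92.3% of the 13 genes. These choices also moved the middle of the whole table. The median log2 difference over the 13 genes was 4.79 by the deposited ratios, 4.32 with the single *Gapdh* Ct, -0.37 with the mean of the other genes and -0.82 by raw Ct. Against the 4.79 of the deposited ratios, *Nkx2.2*, at 4.82, was close to the middle of the table, and *Nkx6.1* and *Isl1* were below it.

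**Figure D3:**
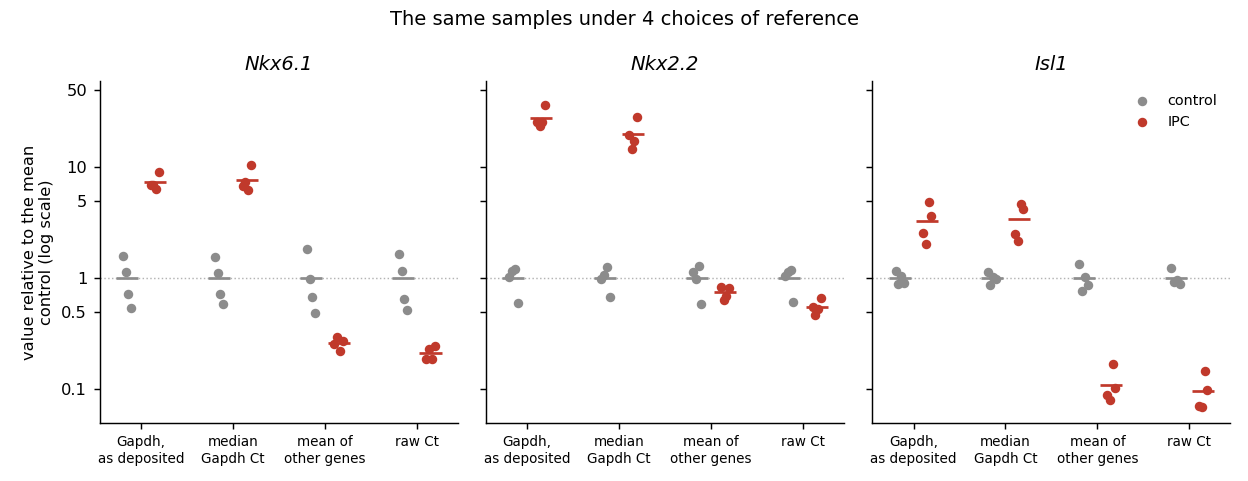
Values of the control (grey) and IPC (red) samples relative to the mean control, on a log axis, under 4 references. Points are the 4 samples of a group and bars their means. IPCs lie above the controls with either Gapdh reference, and their means lie below with the mean of the other genes or with raw Ct, where Nkx2.2 overlaps with the controls.

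The 3 genes were also set against each other by the difference of their raw Ct within a sample, where no reference gene enters. This takes both genes to have been amplified from the same amount of template. That was not tested, and the *Gapdh* Ct of *Nkx2.2* differs from that of *Isl1* and *Nkx6.1* in the same samples, whereas these 2 share theirs. *Nkx2.2* gained on both of the others by raw Ct and by the deposited ratios. Expressed as the log2 of *Nkx2.2* over *Isl1*, the controls of lines 1 to 4 had -6.58, -6.05, -6.06 and -6.89, and their IPCs had -3.39, -3.61, -4.48 and -3.61. The groups did not overlap, and *Nkx2.2* shifted against *Isl1* by 2.62 on the log2 scale, which is 6.16-fold (exact Mann–Whitney U test, p = 0.0286, adjusted p = 0.0371 over all 78 pairs of genes). The 95% interval by limma was from 1.76 to 3.49, and by the deposited ratios the shift was 3.19 (exact Mann–Whitney U test, adjusted p = 0.0348). Of the 78 pairs, 76.9% had groups without overlap.

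For *Nkx6.1* over *Nkx2.2*, the log2 values were 4.46, 3.85, 2.97 and 3.58 in the controls of lines 1 to 4 and 2.26, 2.80, 2.30 and 2.37 in IPCs. All IPC samples lay below all controls, and the balance moved toward *Nkx2.2* by 2.43-fold (exact Mann–Whitney U test, p = 0.0286, adjusted p = 0.0371). Without line 1, however, limma gave an adjusted p of 0.0684 for this pair. By the deposited ratios the shift was -1.85 on the log2 scale and by raw Ct -1.28. These differ because the *Gapdh* Ct worked back for each of the 2 genes shifted by an unequal amount. For *Nkx6.1* over *Isl1*, the values were -2.12, -2.2, -3.09 and -3.31 in controls and -1.13, -0.81, -2.18 and -1.24 in IPCs. The IPC value of line 3 fell below the control of line 1, so that the groups overlapped, with an exact Mann–Whitney p of 0.0571 and an adjusted p of 0.0707. The shift toward *Nkx6.1* was 1.34 on the log2 scale, had the same direction in 4 of 4 lines, and passed in the limma model without and with the cell line as a factor (adjusted p = 0.0056 and 0.00106, 95% interval without it from 0.448 to 2.23). Without line 4 the limma model gave an adjusted p of 0.056. For each pair limma also draws on the spread of all other pairs, which share genes and are not independent.

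**Figure D4:**
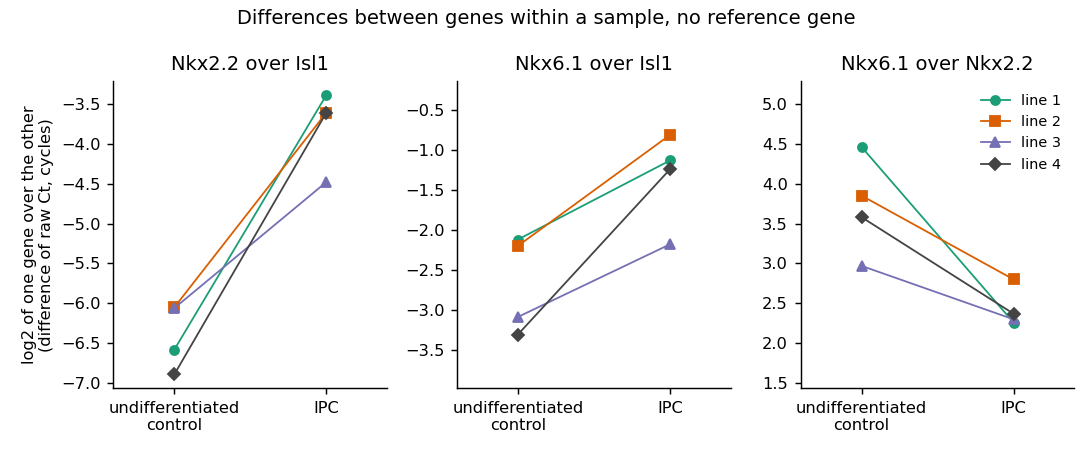
The log2 of one gene over another within each sample, as the difference of their raw Ct, for controls and IPCs of the 4 lines. The axes have the same length in cycles. Nkx2.2 gained 2.62 cycles on Isl1 and 1.28 cycles on Nkx6.1 without overlap, and Nkx6.1 gained 1.34 cycles on Isl1 with overlap between the groups.

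Set against each of the other 12 genes in the same way, *Isl1* lost by raw Ct to 9 genes without overlap and gained on 1, *Epac2*. *Nkx6.1* lost to 6 and also gained on *Epac2* alone. *Nkx2.2* lost to 3 genes, *NeuroD1*, *Glis3* and *MafA*, and gained on 4, *Nkx6.1*, *Isl1*, *Glucagon* and *Epac2*. By the deposited ratios, an alternative added after the values were seen, 82.1% of the 78 pairs did not overlap, and the counts changed through *Glut2*, *Glp1r* and *Rfx6*. *Isl1* then lost to 7 genes and gained on 2, since its direction against *Glut2* turned from -2.24 on the log2 scale by raw Ct to 0.95 and it overlapped with *Glp1r*. *Nkx6.1* lost to 7 and gained on 3, and *Nkx2.2* lost to 3 and gained on 6. These names were also picked out after the values were seen.

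The other endocrine transcription factors of the table, *Ngn3*, *NeuroD1*, *MafA*, *Glis3* and *Rfx6*, were higher by the *Gapdh* ratio in 5 of 5 cases, from 39.5 to 954 times the controls with a median of 278. All 3 homeodomain factors lay below this range, with a median of 7.32, and the median of all 13 genes was 27.2. By raw Ct, 3 of these 5 factors were higher without overlap and 0 were lower, whereas 0 of the 3 homeodomain factors were higher and 2 were lower. *Ngn3* had the same Ct in the control and the IPCs of line 2, 34.02 cycles, and of line 4, 33.69 cycles. *Rfx6* did in line 3, at 33.88 cycles. Their ratios in these lines thus differ through *Gapdh* alone, by 32.8, 38.1 and 46.6 times. Both hormones were higher by the ratio, and of the genes for glucose and incretin sensing, *Glut2*, *Glp1r* and *Epac2*, 1 of 3 was, with a median of 1.35. By raw Ct, 0 of the 2 hormones were higher and 1, *Glucagon*, was lower without overlap. All 3 genes for glucose and incretin sensing were then lower without overlap, against 46.2% of the 13 genes. With the single *Gapdh* Ct per sample, 2 of these 3 were higher and the median was 12.5, from 15.6 for *Glut2* and 12.5 for *Glp1r*. Ranked by the size of the ratio change among the 13 genes, *Nkx2.2* was 6th, *Nkx6.1* 8th and *Isl1* 10th, and with the single *Gapdh* Ct they were 7th, 10th and 11th.

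**Figure D5:**
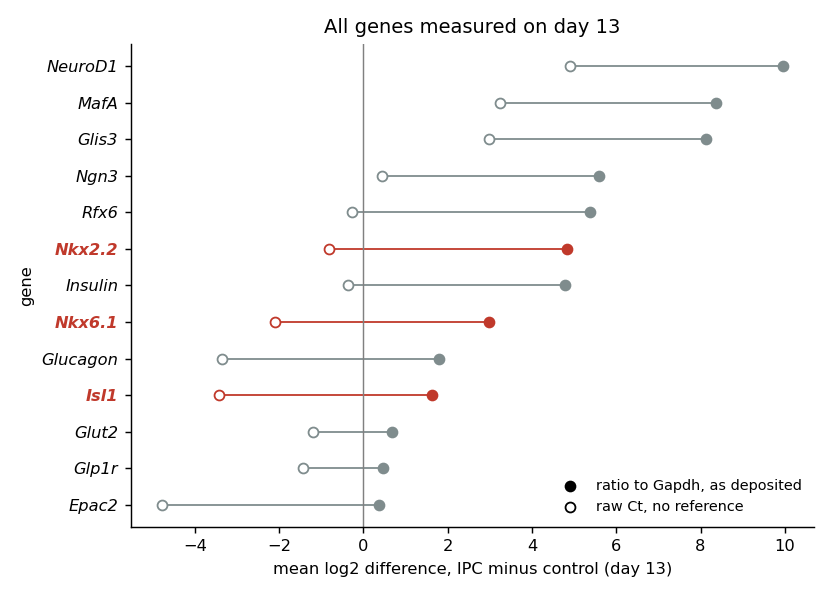
Mean log2 difference between IPCs and controls of the 13 genes of day 13, by the deposited ratio to Gapdh (filled) and by raw Ct (open), with Nkx6.1, Nkx2.2 and Isl1 in red. The 3 genes lie to the right of 0 by the ratio, at 4.82, 2.98 and 1.63 for Nkx2.2, Nkx6.1 and Isl1, and to the left of 0 by raw Ct, at -0.82, -2.10 and -3.44.

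Likeness to other genes was measured as the root mean square difference of the log2 relative expression over the 8 samples. For *Nkx2.2* the closest genes were *Insulin*, at 0.379, and *Rfx6*, at 0.794. For *Isl1* they were *Glucagon*, at 0.510, and *Glut2*, at 0.740. For *Nkx6.1* no gene was as close, with *Glucagon* at 1.01 and *Isl1* at 1.02. With the single *Gapdh* Ct per sample, added after the values were seen, the closest genes were *Glut2* (0.354) and *Insulin* (0.503) for *Nkx2.2*, *Glucagon* (0.585) and *Nkx6.1* (1.02) for *Isl1*, and *Glp1r* and then *Glut2* (0.864) for *Nkx6.1*. The distances to *Glut2* and *Glp1r* thus changed with the *Gapdh* values used, and *Nkx2.2* and *Rfx6* share theirs. *Glucagon* was near the end of the Ct range in IPCs, at 39.4 to 39.9 cycles, so these distances are a description of the table.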

How the data were processed

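RNA was extracted with TRIzol and Direct-zol, reverse-transcribed with ImProm-II and amplified with SYBR Green chemistry by the authors. They deposited the Ct values, in cycles and without normalization, and the linear ratio of each gene to *Gapdh*. Replicate wells and amplification efficiencies are not given in the sources used here, so the precision of a single Ct is unknown. There are no counts, so no read depth applies. The deposited fold changes are the authors' own comparisons and were not used. No sequence of these genes or of their primers is shown.

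Samples were grouped by their titles, and the columns were matched by the sample number in the descriptions. The 13 genes of day 13 were tested together, without filter or pseudocount. Of the genes, *Nkx6.1*, *Nkx2.2* and *Isl1* are described in full, with the 2 closest genes of each, and the rest by lists. These genes, lists and tests were chosen with earlier results of these data known. The source names give controls and IPCs the same line numbers, and by the methods each line is from its own donor. Samples of the same line were therefore taken as paired in the changes within lines and in limma with the line as a factor. The exact tests and limma without the line treated them as independent. The deviations of the paired samples from their group means correlated across the 13 genes with Pearson's r from -0.125 to 0.535. Alternatives were an exact permutation test, limma without and with the line as a factor, Benjamini-Hochberg adjustment, other references, geometric means, a filter that left out 3 genes whose mean Ct reached 35 in controls and in IPCs, and each line left out in turn. Calculations used Python 3.11.15, numpy 2.4.6, pandas 2.3.3, matplotlib 3.10.9, R 4.3.3 and limma 3.58.1. The tests were also run on simulated data of many independent genes with equal spread. That setting differs from the 13 genes here and from their pairs, which share genes.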

Additional observations from a re-analysis of the deposited data

Results flagged for a closer look

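Both values that stood far from the rest of their group belong to *Nkx2.2* in line 4. Its ratio to *Gapdh* in IPCs was 0.00371, above the other 3 IPC samples by a gap of 0.836 of the group's range. Its Ct in the control was 35.4 cycles, later than the other 3 controls by a gap of 0.832 of the range. Both gaps are just over Dixon's limit for 4 samples. Of 12 groups examined, 2 had such a value, where chance alone flags about 5%. The groups include Ct and ratio of the same samples and are not independent, so this count cannot be set against that share. On the other scale line 4 was not flagged, neither for its Ct in IPCs nor for its ratio in controls. Without line 4 the change of *Nkx2.2* was 22.0-fold.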

How the results depend on the processing

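Compared with the *Gapdh* ratio, the direction of the mean was reversed for all 3 genes under 2 of the references, although *Nkx2.2* overlapped with its controls under both. The exact Mann–Whitney p for *Nkx2.2* was 0.0571 by raw Ct and 0.343 with the mean Ct of the other genes. By raw Ct the values were 0.212 for *Nkx6.1*, 0.554 for *Nkx2.2* and 0.0958 for *Isl1* relative to controls, and with the mean Ct of the other genes they were 0.262, 0.748 and 0.110. These choices leave out *Gapdh*, whose Ct was later in IPCs, and whether *Gapdh* mRNA or the amount of RNA differed was not tested. Under the other alternatives, all 3 stayed higher and past the threshold. Not all of these could have come out otherwise. The exact permutation test gives p = 0.0286 whenever groups of 4 do not overlap. Geometric means and the late Ct filter kept the p-value of the exact Mann–Whitney U test, which the filter only adjusted over fewer genes. With each line left out in turn, tested with limma because 3 samples against 3 cannot reach the threshold in an exact test, *Nkx6.1* was 5.85 to 9.24 times the controls, *Nkx2.2* 22.0 to 30.7 times and *Isl1* 2.77 to 3.69 times. The replicate block, a limma model that holds the line, changed no call for the single genes. For the pairs of genes, the shift of *Nkx6.1* against *Isl1* was 1.34 and passed in limma without and with the replicate block (adjusted p = 0.0056 and 0.00106), but not in the exact tests. With each line left out it was 1.10 to 1.48, and without line 4 it did not pass. The shift of *Nkx6.1* against *Nkx2.2* was from -1.49 to -0.98 and did not pass without line 1, and that of *Nkx2.2* against *Isl1* was 2.40 to 2.97. The latest Ct of the 3 genes was 35.8 cycles, and with an unknown number of wells the errors at late Ct are unknown.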
